A study of Mus musculus with 36 samples.

Results

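Catalytically dead RfxCas13d (dRfxCas13d), guided to the 3' untranslated region (UTR) of Mapt by 1 of 2 crRNAs, was compared with the same dead nuclease and a non-targeting (NT) crRNA in N2a cells, a mouse neuroblastoma line. The libraries were chosen by their labels: 2 of dRfxCas13d with Mapt crRNA 4, 2 of dRfxCas13d with Mapt crRNA 6 and 2 of dRfxCas13d with NT crRNA, 6 of the 36 libraries of the series. All cells of the series carried transfected plasmids for a nuclease, cells positive for GFP were collected by sorting at 48 h, and mRNA libraries were sequenced as paired reads. The other libraries used for comparison were the 10 of dRfxCas13d with Map2 crRNA 1 or 3, Rbfox3 crRNA 5 or Sik3-S crRNA 1 or 8, the 2 of dRfxCas13d alone, and the 6 of active RfxCas13d with the same 3 crRNAs. The labels of the Rbfox3 crRNA disagree on its number, 5 in the titles and 6 in the descriptions, and the number of the titles is used. Sorting on GFP selects transfected cells, the cells are 1 tumor line rather than neurons, and no label states that replicate libraries were transfected separately. All p-values below therefore measure the spread between these libraries, which may be technical.

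RfxCas13d is an RNA-guided RNA nuclease. A short crRNA, made of a direct repeat and a spacer, pairs with a target RNA, the complex then changes shape, and a pair of HEPN domains cuts both the target and other RNAs nearby. Mutation of the catalytic residues of the HEPN domains leaves binding of the target intact and removes cutting, so the dead form separates what follows from binding and from expression of the crRNA and protein from what follows from cleavage. Mapt encodes tau, which binds along microtubules of axons and stabilizes them, and whose aggregates mark Alzheimer's disease. The 3' UTR of an mRNA carries sites for RNA-binding proteins and microRNAs that set its stability, location and translation.

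The 2 Mapt crRNAs recognize nearly the same site. Their spacers are 22 bases long and share 17, with a shift of 5 bases, which is why the pair is shown with the stretch of Mapt mRNA that they cover and with the NT spacer. Capitals mark the shared bases and their target.
Mapt crRNA 4: cttagATAAAAGAAAAGGCAGA
Mapt crRNA 6: ATAAAAGAAAAGGCAGAggtcc
Target in Mapt: ggaccTCTGCCTTTTCTTTTATctaag
NT crRNA: tcaccagaagcgtaccatactc
In RfxCas13d crRNAs the direct repeat precedes the spacer, so the bases particular to crRNA 4 lie next to the repeat and those particular to crRNA 6 lie at the far end. The GC content of the spacers was 31.8% for crRNA 4, 40.9% for crRNA 6 and 50% for NT crRNA. The target of 27 bases lies at chr11:104329649-104329675 of GRCm38 (mm10), on the plus strand, and 70.4% of its bases are C or T. In the GENCODE vM21 annotation it falls in the last exon, exon 10 of 10, of the transcript Mapt-204, in the 3' UTR, 1461 bases after the stop codon. This is the 1 transcript that holds the site among the 12 annotated for Mapt, 8 of which are coding.

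The values are FPKM (fragments mapped to a gene, divided by its exon length and by the mapped fragments of the library), rescaled here by 1 factor per library so that the median gene has the same level in all libraries. Sequencing depth, estimated from the steps of the lowest FPKM, was between 8720000 and 10790000 fragments in the 6 libraries, within the range of all 36 (8630000 to 16730000). All 6 libraries held the defining markers of N2a cells. Tubb3, the neuronal beta tubulin, was at 293.9 to 333.1 with Mapt crRNAs and 343.8 to 347.1 with NT crRNA, and Hand2, a transcription factor of sympathetic neuroblasts, was at 162.2 to 194.9 with Mapt crRNAs and 138.7 to 146.7 with NT crRNA. The hemoglobin genes Hba-a1 and Hbb-bs were listed at 0 in all 6, and the summed level of 14 fibroblast markers was 182.8 to 189.9 with Mapt crRNAs and 205.7 to 207.6 with NT crRNA. Dcn and Col1a1, which define fibroblasts, reached at most 0.739 and 0.734 in the 6 libraries, and the summed levels of macrophage markers (3.84 to 6.23 with Mapt crRNAs and 6.37 to 7.44 with NT crRNA) and oligodendrocyte markers (9.22 to 10.7 and 12.5 to 13.2) were low. The summed level of 25 liver markers was 24.4 to 29.5 with Mapt crRNAs and 33.2 to 36.6 with NT crRNA. The sums of these lists were lower with the Mapt crRNAs than with NT crRNA. With the other targeting crRNAs they were 185.7 to 206.5 (fibroblast), 3.87 to 7.37 (macrophage), 8.90 to 12.3 (oligodendrocyte) and 27.6 to 38.6 (liver). Each of these ranges overlaps that of the Mapt crRNAs. The part of these lists in the results below was not tested.

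The 4 Mapt crRNA libraries belong to 8 libraries that stand apart from the other 28, together with the 4 of dRfxCas13d with Map2 crRNA 3 or Rbfox3 crRNA 5. This was seen in the values and no label names it. Of the genes tested, 87 were higher in each of the 8 libraries than in any of the other 28, and 53 were lower. Snord2, a small nucleolar RNA lying within Eif4a2, was at 0 to 11.4 in the 8 and 22.01 to 95.3 in the 28. Ndufa12, a subunit of respiratory complex I, was at 47.4 to 66.9 in the 8 and 19.9 to 32.0 in the 28. Both NT crRNA libraries are on the other side of this split. A difference between the Mapt crRNAs and NT crRNA therefore cannot be told apart from it by the comparison with NT alone, and each main result is given below also against Map2 crRNA 3 and Rbfox3 crRNA 5, 4 libraries on the same side of the split. A further value subtracts from the NT comparison the difference of those 4 libraries from the 6 of Sik3-S crRNA 1, Sik3-S crRNA 8 and Map2 crRNA 1, and is called shift-subtracted. Both were added after the split had been seen.

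Mapt itself was measured first, since an intact level would be the check of a nuclease that does not cut. Binding was not measured, and an intact level cannot tell binding without cutting from no binding. With dRfxCas13d, Mapt was at 32.2 and 34.4 with crRNA 4, at 26.4 and 27.3 with crRNA 6, and at 33.4 and 34.5 with NT crRNA. Both crRNA 6 libraries were below both NT libraries, whereas those of crRNA 4 overlapped them. With active RfxCas13d, Mapt was at 2.24 and 2.61 with crRNA 4, at 1.99 and 2.17 with crRNA 6, and at 25.1 and 26.1 with NT crRNA. Mapt thus stood at 98.0% of the NT level with dRfxCas13d and crRNA 4 and at 79.0% with crRNA 6, against 9.49% and 8.14% with the active nuclease. In a limma fit of log2(FPKM + 1) over all 36 libraries, the log2 fold change over NT was -0.03 with crRNA 4 (95% interval -0.16 to 0.10, adjusted p = 0.834) and -0.33 with crRNA 6 (SE 0.062, adjusted p = 0.000632). For both Mapt crRNAs together, the log2 change with the active nuclease minus that with the dead one was -2.85 (adjusted p = 2.35e-17 for the difference, limma).

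**Figure D1:**
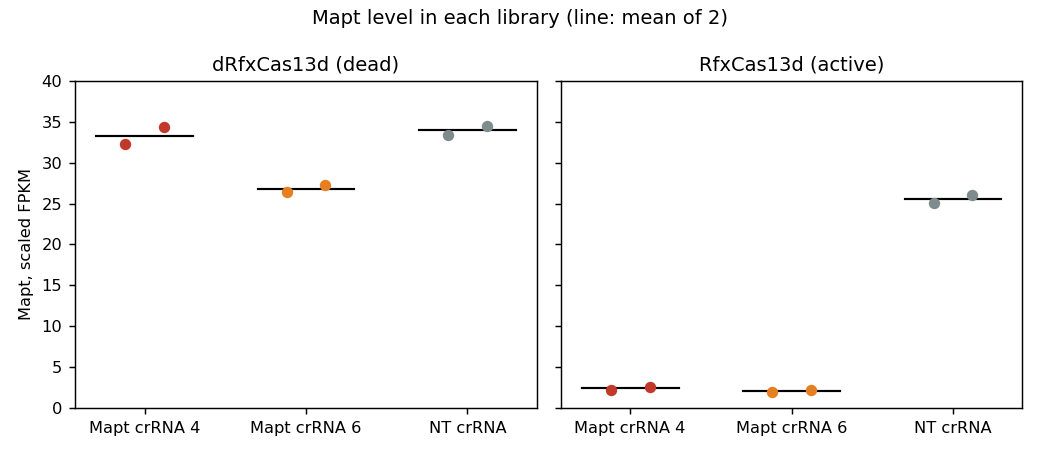
Mapt level (scaled FPKM, linear axis from 0) in each library of dRfxCas13d, left, and RfxCas13d, right, with Mapt crRNA 4, Mapt crRNA 6 or NT crRNA. Points are libraries and lines are means of 2. With dRfxCas13d the crRNA 6 libraries sit at 26.4 and 27.3, below both NT libraries, and with RfxCas13d all 4 Mapt crRNA libraries lie between 1.99 and 2.61.

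Over both crRNAs the fold change of Mapt was -0.18 (SE 0.054, limma adjusted p = 0.0206). An exact permutation test of the 4 against 2 values gave p = 0.2, two-sided, where the 15 arrangements allow no p below 0.0667. The call was lost without crRNA 4 replicate 1 (-0.16, adjusted p = 0.052), without crRNA 6 replicate 1 (-0.17, 0.0614), without NT replicate 1 (-0.20, 0.0698) and without NT replicate 2 (-0.16, 0.151). Compared with Map2 crRNA 3, at 28.9 and 29.0, and Rbfox3 crRNA 5, at 34.5 and 32.3, the fold change of Mapt was -0.06 (adjusted p = 0.642) for both Mapt crRNAs and -0.21 (adjusted p = 0.0437) for crRNA 6. The shift-subtracted value was -0.11 (adjusted p = 0.478) for both, and for crRNA 6 it was -0.26, no longer past the threshold. Against all 10 libraries of the other targeting crRNAs it was -0.10 (adjusted p = 0.0701). Mapt with crRNA 4 exceeded Mapt with crRNA 6 by 0.30 (95% interval 0.17 to 0.43, limma adjusted p = 0.0239), a call that was kept without NT replicate 1 or NT replicate 2 and lost without each of the 4 Mapt crRNA libraries in turn. With the active nuclease, crRNA 4 exceeded crRNA 6 by 0.15 (adjusted p = 0.25).

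Other transcripts that could pair with the crRNAs were sought in the annotation. No gene besides Mapt pairs with crRNA 4 with at most 3 mismatches. crRNA 6 has 3 such genes, of which Luzp2 was listed at 0 in all 6 libraries. Dusp11, a phosphatase that acts on RNA 5' ends and that has 3 mismatches, was at 32.4 and 28.3 with crRNA 6 and 32.2 and 31.7 with NT crRNA, with a log2 fold change of -0.07 (limma adjusted p = 0.379). Pcdhb16, a protocadherin with 2 mismatches, was at 0.700 and 0.753 with crRNA 6 and 0.570 and 0.767 with NT crRNA, with a fold change of 0.05 (adjusted p = 0.832). The groups overlapped for Dusp11 and Pcdhb16, and neither passed. With at most 4 mismatches, 15 tested genes matched crRNA 4, of which 0 were higher and 1 lower than with NT crRNA at an adjusted p under 0.05 in limma (4.12% and 4.06% of all genes tested, with 3102 genes at an unadjusted p under 0.05), and 18 matched crRNA 6, of which 2 were higher and 1 lower (11.1% and 11.2% of all). These 4 genes became 2 without crRNA 6 replicate 1 or without NT replicate 2. Matches in introns were not searched. Kansl1, the neighbor of Mapt downstream, was at 29.1 and 29.97 with crRNA 4, 31.6 and 29.0 with crRNA 6 and 30.3 and 30.8 with NT crRNA (-0.03, limma adjusted p = 0.68), and Sppl2c, within the locus, was at 0 in all 6. Of 21 tested genes within 2 Mb of Mapt, 1 was higher and 3 were lower with both crRNAs combined (10.3% and 10.5% of all).

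The 2 crRNAs, which share most of their target, gave different transcriptomes, and part of the difference recurred with the active nuclease. With dRfxCas13d, 56 genes were higher and 25 lower with crRNA 4 than with crRNA 6 at an adjusted p under 0.05 (0.421% and 0.188% of 13293 genes tested, 0.609% in all, limma). With RfxCas13d, in libraries that this comparison does not use, 182 genes were higher and 96 lower (1.37% and 0.722%). Of the 56 genes, 31 were also higher with the active nuclease and 0 lower, while of the 25 genes 5 were also lower and 0 higher. Both comparisons come from 1 fit and share its estimate of the spread, but no library. All 36 shared genes are protein-coding. A test of the difference between the nucleases in the crRNA 4 to crRNA 6 contrast was passed by 12 genes of all tested (0.0903%). The genes named here from this comparison, other than AF357359 and 5730408K05Rik, were chosen after their values were seen.

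Mrpl37 encodes a protein of the large subunit of the mitochondrial ribosome. With dRfxCas13d it was at 34.0 and 34.4 with crRNA 4, 19.3 and 19.6 with crRNA 6, and 32.8 and 30.8 with NT crRNA. With RfxCas13d it was at 36.3 and 32.0 with crRNA 4, 20.1 and 19.7 with crRNA 6, and 31.3 and 32.4 with NT crRNA. The crRNA 6 libraries of both nucleases were low, and the crRNA 4 libraries lay near NT crRNA. The log2 fold change of Mrpl37, crRNA 4 over crRNA 6, was 0.79 with dRfxCas13d (SE 0.073, adjusted p = 1.88e-06, limma) and 0.75 with RfxCas13d (adjusted p = 1.1e-06).

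Dym, whose product is needed for Golgi organization and bone growth, was at 12.8 and 13.1 with dRfxCas13d and crRNA 4, 7.44 and 6.95 with crRNA 6, and 15.2 and 11.5 with NT crRNA. With RfxCas13d Dym was at 8.62 and 9.15 with crRNA 4, 3.89 and 3.76 with crRNA 6, and 11.6 and 11.6 with NT crRNA. The fold changes, crRNA 4 over crRNA 6, were 0.77 with the dead and 1.03 with the active nuclease. Lgr5, a receptor for R-spondins that amplifies Wnt signals and marks stem cells, was at 8.82 and 9.47 with dRfxCas13d and crRNA 4, 4.96 and 5.88 with crRNA 6, and 7.96 and 8.92 with NT crRNA. The corresponding fold changes of Lgr5 were 0.66 and 0.98. For Dym and Lgr5 both crRNA 6 libraries of dRfxCas13d were below both crRNA 4 libraries and both NT libraries, and the same held with the active nuclease.

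Mad1l1, a protein of the spindle checkpoint, was at 25.1 and 28.3 with dRfxCas13d and crRNA 4, 18.9 and 17.0 with crRNA 6, and 25.2 and 23.9 with NT crRNA. Col4a2, a chain of basement-membrane collagen, was at 51.7 and 51.9 with crRNA 4, 36.9 and 38.1 with crRNA 6, and 57.0 and 56.0 with NT crRNA. The fold changes of Mad1l1 were 0.55 and 0.72 and those of Col4a2 were 0.46 and 0.65, with the dead and the active nuclease in this order. Dpysl5, of the collapsin response mediators of axon guidance, gave 0.52 and 0.73, the transcription factor Zhx2 gave 0.53 and 0.79, and Myo5a, the motor that carries vesicles on actin, gave 0.42 and 0.47. For the opposite direction, E2f7, a repressor of cell cycle genes, was at 23.9 and 25.98 with crRNA 4, 33.0 and 32.5 with crRNA 6, and 22.2 and 21.9 with NT crRNA, and its fold changes were -0.38 with dRfxCas13d and -0.40 with RfxCas13d. All of these values passed in limma with both nucleases.

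Among the 31 genes higher with crRNA 4 under both nucleases, each crRNA was compared with NT crRNA. With dRfxCas13d and crRNA 4, 0 were higher and 3 lower than with NT crRNA (4.12% and 4.06% of all genes tested), with a median log2 fold change of -0.05, while with crRNA 6 31 of the 31 were lower (11.2% of all), with a median of -0.46. With RfxCas13d, 6 were higher and 17 lower with crRNA 4 (17% and 16.2% of all), with a median of -0.23, and 2 were higher and 27 lower with crRNA 6 (16% and 15.9% of all), with a median of -0.65. Against Map2 crRNA 3 and Rbfox3 crRNA 5, on the same side of the library split, 0 of the 31 were higher or lower with crRNA 4 (0 of all genes tested, where 976 had an unadjusted p under 0.05 in limma), and 26 were lower with crRNA 6 (1.3% of all). For 23 of the 36 shared genes both crRNA 6 libraries were the lowest of the 18 libraries of their nuclease, with both nucleases, as for 65 of all 13293 genes tested. These counts describe genes chosen by the crRNA 6 libraries themselves and are not a separate test.

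Exact pairing with crRNA 6 was measured in annotated exons. The longest complementary run had a median of 9 bases among the 31 and 9 among all genes tested, and 10 or more bases were found for 10 of the 31 (32.26%) and for 22.06% of all genes tested. The part of pairing in these levels was not tested. The genes were longer in the genome: 45.16% of the 31, against 10.69% of all genes tested, spanned more than 100 kb from start to end, introns included. Pairing within introns was not searched.

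The counts depended on single libraries. The count of 81 genes became 31 without crRNA 4 replicate 1, 26 without crRNA 6 replicate 1 and 251 without crRNA 4 replicate 2, and the count of genes past the test the same way with both nucleases, 36, became 21 without crRNA 4 replicate 1 and 19 without crRNA 6 replicate 1. When only the 4 libraries of the dRfxCas13d comparison were fitted, 0 genes passed in limma, against 1639 genes at an unadjusted p under 0.05 in the fit of all libraries, and when only the 18 dRfxCas13d libraries were fitted 30 passed.

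**Figure D2:**
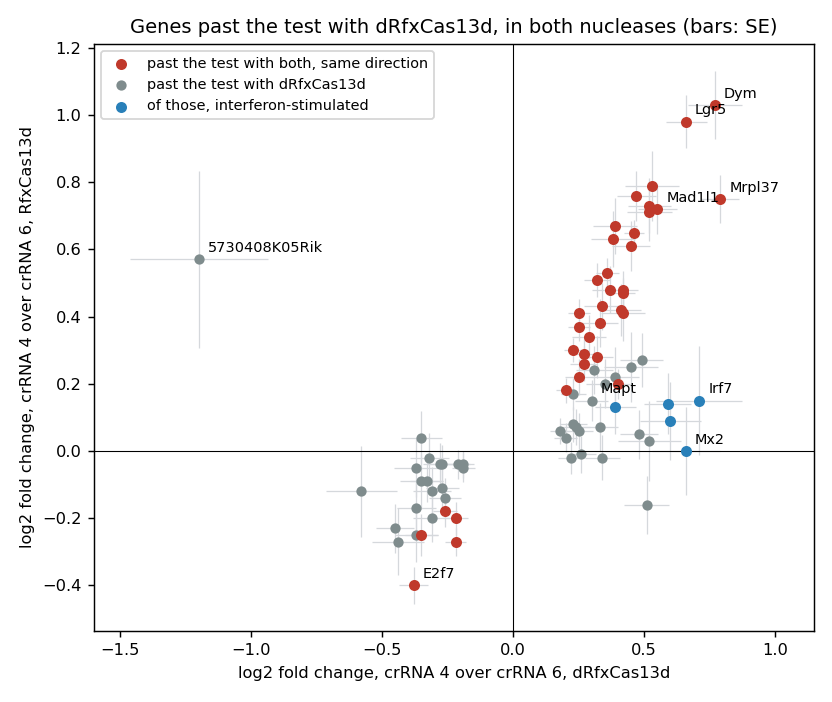
Log2 fold change of Mapt crRNA 4 over Mapt crRNA 6 with dRfxCas13d (x axis) and with RfxCas13d (y axis) for the genes past an adjusted p of 0.05 with dRfxCas13d, other than the short entry AF357359. Bars are standard errors, red marks the 36 genes past the test in the same direction with both nucleases, and blue marks interferon-stimulated genes, which lie between 0.00 and 0.15 on the y axis.

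Of the 81 genes, 2 also changed by at least 2-fold, 1 in each direction (0.00752% of genes each, 0.015% in all), a count that became 4 without crRNA 4 replicate 1, 6 without crRNA 4 replicate 2, 3 without crRNA 6 replicate 1 and 8 without crRNA 6 replicate 2. AF357359, an entry of 30 bases annotated within a small nucleolar RNA cluster, was at 45.7 and 34.6 with crRNA 4, 3.84 and 3.23 with crRNA 6 and 17.3 and 10.1 with NT crRNA, and 5730408K05Rik was at 0.713 and 0.540 with crRNA 4, 3.601 and 2.016 with crRNA 6 and 2.16 and 2.89 with NT crRNA. With the active nuclease the 2 entries did not pass (adjusted p = 0.696 and 0.32, limma).

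Against NT crRNA, the 2 Mapt crRNAs together gave many small differences and few large ones. At an adjusted p under 0.05, 1369 genes were higher and 1398 lower with Mapt crRNAs (10.3% and 10.5% of the genes tested), with a median absolute log2 fold change of 0.26. With at least a 2-fold change as well, 13 were higher and 23 lower (0.0978% and 0.173%, 0.271% in all). All 4 Mapt crRNA libraries were above both NT libraries for 17.4% of genes and below them for 18% of genes. The count of 2767 genes, 20.8% of those tested, became 1756 without crRNA 4 replicate 2, 1838 without crRNA 6 replicate 1, 1421 without NT replicate 1 and 1497 without NT replicate 2, and 18 genes passed when only the 6 libraries were fitted. With crRNA 6 alone 1469 genes were higher and 1495 lower than with NT crRNA, and with crRNA 4 alone 548 were higher and 540 lower. With 2-fold as well, 54 genes were called with crRNA 6 (0.406%) and 18 with crRNA 4 (0.135%). The crRNA 4 count, 1088 in both directions (8.18%), was 77 without crRNA 4 replicate 2, 1641 without crRNA 4 replicate 1, 394 without NT replicate 1 and 435 without NT replicate 2. That of crRNA 6, 2964 (22.3%), was 1117 without crRNA 6 replicate 1, 1826 without NT replicate 1 and 1951 without NT replicate 2.

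Fewer genes passed against the targeting crRNAs on the same side of the library split. Against Map2 crRNA 3 and Rbfox3 crRNA 5, 16 genes were higher and 37 lower with the Mapt crRNAs (0.12% and 0.278%), and 0 changed by 2-fold (limma, with 1738 genes at p under 0.05 before adjustment). With crRNA 6 alone 158 were higher and 173 lower (1.19% and 1.3%). The shift-subtracted comparison with NT crRNA gave 72 higher and 94 lower (0.542% and 0.707%), of which 2 and 4 changed by 2-fold (0.015% and 0.0301%). By the same subtraction 424 genes passed with crRNA 6 (3.19%), 17 of them at 2-fold (0.128%), and 6 with crRNA 4 (0.0451%), none at 2-fold. Set against all 10 libraries of the other targeting crRNAs, 1205 were higher and 1076 lower (9.06% and 8.09%, 17.2% in all), with 7 called at 2-fold (0.0527%), and these libraries in turn differed from NT crRNA in 181 genes that were higher and 229 that were lower (1.36% and 1.72%, 3.08% in all), with 6 called (0.0451%). The 2281 genes that passed against the other targeting crRNAs became 766 without crRNA 4 replicate 2 and 832 without crRNA 6 replicate 1, and the 410 of the other targeting crRNAs against NT became 50 without NT replicate 1 and 59 without NT replicate 2. The last comparison shares the NT libraries with that of the Mapt crRNAs.

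Of the 36 genes called at 2-fold, 17 have under 300 bases of exon (516 of all 13293 genes tested), 15 of them microRNA entries (399 of all) and 2 small nucleolar RNA entries (109 of all). Another 15 are protein-coding (12065 of all), and with entries under 300 bases left out 19 were called. Mir148a was listed at 0 in all 4 Mapt crRNA libraries and at 7.32 and 7.15 with NT crRNA, and it was also listed at 0 in the 4 libraries of Map2 crRNA 3 and Rbfox3 crRNA 5. Mir6934, Mir26b, Mir1938 and Mir128-1 were listed at 0 with both Mapt crRNAs and at 1.44 to 5.01 with NT crRNA. Levels of 0 in these entries were not particular to the Mapt crRNAs. Mir6934, Mir1938 and Mir128-1 were also at 0 in both libraries of dRfxCas13d alone. Among the 10 libraries of the other targeting crRNAs, Mir6934 was above 0 only in Rbfox3 crRNA 5 replicate 2. Mir26b and Mir128-1 were above 0 there only in Sik3-S crRNA 1 replicate 2. Mir1929 and Mir5104 were listed at 0 with NT crRNA and at 1.04 to 4.96 with the Mapt crRNAs. Mir7-1, the hairpin of miR-7 in an intron of Hnrnpk, was at 5.92 and 12.5 with crRNA 4, 13.9 and 9.86 with crRNA 6, and 4.795 and 0.936 with NT crRNA (log2 fold change 1.73, limma adjusted p = 0.000783). These are reads over a hairpin in an mRNA library and not a measure of the mature microRNA.

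Among the longer genes, Ndufa12 was at 48.1 and 64.2 with crRNA 4, 61.3 and 66.9 with crRNA 6, and 22.5 and 23.3 with NT crRNA. All 4 Mapt crRNA libraries were above NT, and the log2 fold change was 1.34 (SE 0.104, limma adjusted p = 6.52e-08). Relative to Map2 crRNA 3, at 48.5 and 47.4, and Rbfox3 crRNA 5, at 62.2 and 57.4, it was 0.15 (adjusted p = 0.473). Rps6, a protein of the small ribosomal subunit, was at 31.8 and 30.3 with crRNA 4, 36.04 and 32.3 with crRNA 6, and 16.1 and 14.7 with NT crRNA, with fold changes of 1.03 over NT (adjusted p = 5.85e-07, limma) and 0.03 over Map2 crRNA 3 and Rbfox3 crRNA 5 (adjusted p = 0.912). Gm6654, a pseudogene, was at 22.9 and 24.9 with crRNA 4, 33.5 and 22.6 with crRNA 6, and 7.78 and 6.62 with NT crRNA. Its fold changes were 1.70 over NT and -0.03 over the same 4 libraries. The levels of all 3 genes overlapped those of Map2 crRNA 3 and Rbfox3 crRNA 5. All 3 are among the genes that showed the library split, so this overlap follows in part from that. Reads could also be split between near-identical copies: 42.5% of the 50-base windows of Gm6654 also occur in Rps26 and 55.1% of those of Rps6 in another gene, its pseudogene Rps6-ps4.

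Snord2 was at 4.03 and 4.58 with crRNA 4, 3.39 and 11.4 with crRNA 6, and 51.8 and 59.4 with NT crRNA, and at 0 to 8.65 with Map2 crRNA 3 and Rbfox3 crRNA 5. The fold change of Snord2 was -3.18 over NT (limma adjusted p = 0.000224), and its shift-subtracted value was 0.50 (adjusted p = 0.776). All its windows lie within Eif4a2, so its reads cannot be told apart from those of that gene. Snora75, another small nucleolar RNA, lies wholly within Ncl and was at 6.30 and 8.95 with crRNA 4, 3.97 and 5.84 with crRNA 6, and 0.893 and 0.872 with NT crRNA (1.91, adjusted p = 0.00269). The NT libraries were the low ones for Snora75, since dRfxCas13d alone had 3.24 and 4.32.

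**Figure D3:**
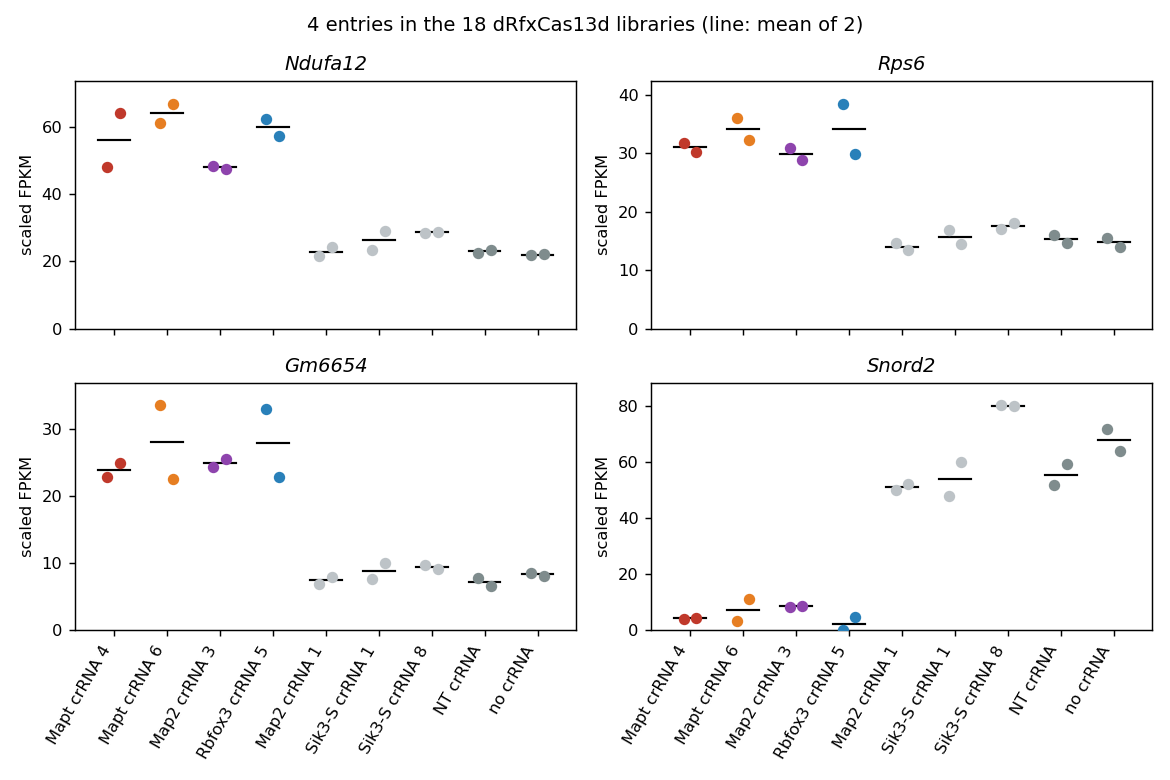
Level (scaled FPKM, linear axes from 0) of Ndufa12, Rps6, Gm6654 and Snord2 in the 18 dRfxCas13d libraries by crRNA, with points for libraries and lines for means of 2. The libraries of Mapt crRNA 4, Mapt crRNA 6, Map2 crRNA 3 and Rbfox3 crRNA 5 sit together and apart from the others, including NT crRNA and no crRNA. All entries shown are among the genes that showed this split.

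Some genes called against NT crRNA and named in this paragraph or before it also passed after the shift was subtracted. They include Rhox2b, Ctss and Mir7-1, Mir7-1 with 1.64 (limma adjusted p = 0.0486). Some genes named in later paragraphs also passed, among them Atf3, Ddit3 and Nefh. Rhox2b, a homeobox gene of a cluster on the X chromosome, was at 2.52 and 2.32 with crRNA 4, 1.82 and 2.16 with crRNA 6, and 0.408 and 0.265 with NT crRNA, with fold changes of 1.26 over NT (limma adjusted p = 3.17e-05) and 1.09 shift-subtracted (adjusted p = 0.00927). The change of Rhox2b over Map2 crRNA 3 and Rbfox3 crRNA 5 was 0.59 (adjusted p = 0.0559), and 82.3% of its windows occur in other genes. Ctss, a lysosomal protease, was at 1.21 and 1.68 with crRNA 4, 0.508 and 0.356 with crRNA 6, and 3.58 and 3.27 with NT crRNA, with no overlap. Its fold changes were -1.25 over NT (adjusted p = 3.41e-05), -1.32 shift-subtracted (adjusted p = 0.00243) and -0.73 over the 4 libraries of Map2 crRNA 3 and Rbfox3 crRNA 5 (adjusted p = 0.0127). The other called genes at low levels include 1810009A15Rik (1.91 and 1.66 with crRNA 4, 1.28 and 1.67 with crRNA 6, 0.255 and 0.124 with NT crRNA), Gm20594 (1.91 and 2.49, 2.07 and 2.32, and 0.620 and 0) and Fam24a (1.72 and 1.96, 2.17 and 2.35, and 0 and 1.09), in each of which the NT libraries were low.

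Interferon-stimulated genes were lower with the Mapt crRNAs than with NT crRNA. These genes are switched on by type I interferon, and many of their products bind, modify or degrade foreign RNA. Of 51 listed genes 44 were tested, and 33 were lower and 0 higher with the Mapt crRNAs than with NT crRNA (10.5% and 10.3% of all genes), with a median log2 fold change of -0.47. The 4 Mapt crRNA libraries were all below both NT libraries for 37 of the 44, as for 18% of all genes tested. The summed level of the list was 1067 to 1072 with crRNA 4, 975.8 to 1031 with crRNA 6 and 1280 to 1299 with NT crRNA, while it was 1096 to 1180 with the other targeting crRNAs and 1349 to 1354 with dRfxCas13d alone. With crRNA 4 alone 26 were lower (4.06% of all), with a median of -0.39, and with crRNA 6 alone 36 were lower (11.2%), with a median of -0.58. The crRNA 4 count was 8 without crRNA 4 replicate 2 and 17 without either NT library, whereas that of both crRNAs was between 29 and 35 with any of the 6 libraries left out. When only the 6 libraries were fitted, 4 genes of the list passed as lower.

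Among the effectors, Oas1b, an oligoadenylate synthetase, was at 11.3 and 10.1 with crRNA 4, 7.09 and 6.48 with crRNA 6, and 18.2 and 19.4 with NT crRNA (-1.05, SE 0.078, limma adjusted p = 5.82e-08). Isg15, a ubiquitin-like modifier, was at 33.8 and 32.1 with crRNA 4, 25.5 and 31.5 with crRNA 6, and 58.2 and 58.2 with NT crRNA, a fold change of -0.91. Bst2, which tethers budding virions, was at 31.8 and 28.7 with crRNA 4, 21.8 and 23.7 with crRNA 6, and 45.3 and 51.3 with NT crRNA, a fold change of -0.85. In none of these did the groups overlap, and the crRNA 6 libraries were the lowest. Eif2ak2, the kinase PKR that is activated by double-stranded RNA, fell by 0.29 on the log2 scale (adjusted p = 0.000387).

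Among the regulators, Irf7, the transcription factor that amplifies interferon production, was at 5.80 and 4.91 with crRNA 4, 2.54 and 3.23 with crRNA 6, and 12.2 and 8.43 with NT crRNA (-1.17, SE 0.141, limma adjusted p = 1.09e-05). Usp18, which removes ISG15 and dampens the receptor, was at 10.5 and 11.5 with crRNA 4, 9.56 and 9.02 with crRNA 6, and 23.3 and 20.8 with NT crRNA, a fold change of -1.05. Rsad2, or viperin, fell by 0.95 (adjusted p = 3.72e-06). All 4 Mapt crRNA libraries were below both NT libraries for each of these genes. Irf7, Usp18 and Rsad2 were chosen after their values were seen.

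The difference was also measured on the same side of the library split. Against Map2 crRNA 3 and Rbfox3 crRNA 5, 8 of the 44 were lower and 0 higher (0.278% and 0.12% of all), with a median of -0.24, and with crRNA 6 alone 20 were lower (1.3%). In that comparison Oas1b changed by -0.47 (adjusted p = 0.000947), Irf7 by -0.55 (adjusted p = 0.0329), Isg15 by -0.39 (adjusted p = 0.00911) and Bst2 by -0.31 (adjusted p = 0.0108), all in limma. The shift-subtracted comparison with NT gave 19 lower and 0 higher (0.707% and 0.542% of all). Between the crRNAs, 5 of the list, Irf7, Mx2, Xaf1, Oas1b and Bst2, were higher with crRNA 4 than with crRNA 6 and 0 lower, by 0.39 to 0.71, and none of the 5 passed between the same crRNAs with the active nuclease, where Irf7 gave 0.15 and Mx2 0.00. That count of 5 was 1 without crRNA 4 replicate 1 and 2 without crRNA 6 replicate 1. Both genes were lower with the active nuclease already with NT crRNA. There Irf7 was at 2.08 and 2.35 with RfxCas13d and 12.2 and 8.43 with dRfxCas13d, and Mx2 at 2.86 and 3.95 against 10.9 and 9.92. The share of transfected cells and the amount of plasmid per cell were not measured, and their part in these levels was not tested.

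**Figure D4:**
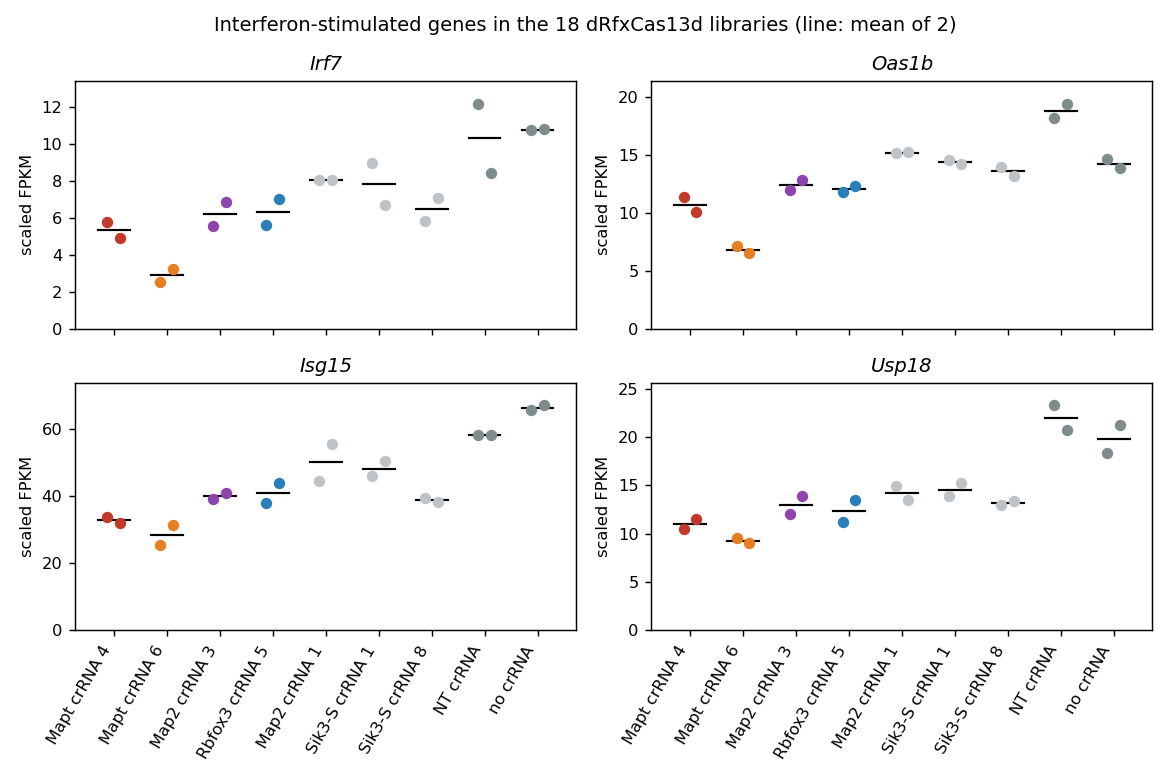
Level (scaled FPKM, linear axes from 0) of Irf7, Oas1b, Isg15 and Usp18 in the 18 dRfxCas13d libraries by crRNA, with points for libraries and lines for means of 2. The Mapt crRNA libraries are below NT crRNA in all 4 panels, and crRNA 6 is at or below crRNA 4.

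Genes that work with tau were read next. Of 23 tested members of the tau and microtubule-associated protein family, 4 were higher and 2 lower with the Mapt crRNAs than with NT crRNA, against 10.3% and 10.5% of all genes tested, with a median of 0.07, and Mapt is 1 of the 2. Map1b, the main such protein of young neurons, was at 360.5 and 433.1 with crRNA 4, 462.8 and 422.3 with crRNA 6, and 340.7 and 341.8 with NT crRNA (0.29, limma adjusted p = 0.00148). Of 23 kinases and phosphatases of tau, 2 were higher and 7 lower, among the higher Csnk1e, casein kinase 1 epsilon, which changed by 0.17 (adjusted p = 0.00244). Of 15 tubulins 3 were higher and 2 lower, and Tubb2a fell by 0.31 (adjusted p = 0.000406). The 4 Mapt crRNA libraries did not overlap NT for Map1b, Csnk1e or Tubb2a, and against Map2 crRNA 3 and Rbfox3 crRNA 5 no gene of these 3 lists passed in limma.

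The crRNA targets other than Mapt were also read, as a check of the dead nuclease with crRNAs that do not address them. Map2 was at 10.7 and 12.6 with crRNA 4, 10.2 and 10.4 with crRNA 6, and 9.78 and 10.3 with NT crRNA (0.12, limma adjusted p = 0.218). Sik3 was at 18.1 and 21.4 with crRNA 4, 22.7 and 21.0 with crRNA 6, and 17.5 and 18.1 with NT crRNA (0.21, adjusted p = 0.0292), and it passed neither against Map2 crRNA 3 and Rbfox3 crRNA 5 nor without crRNA 4 replicate 2 (0.15, adjusted p = 0.141), crRNA 6 replicate 1 (0.18, 0.101), NT replicate 1 (0.19, 0.179) or NT replicate 2 (0.23, 0.0959). Rbfox3 was too low to be tested.

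Other gene groups were read in the same comparison, in which 10.3% of all genes tested were higher and 10.5% lower. Of 95 nuclear genes of the respiratory chain, which makes ATP in mitochondria, 9 were higher and 37 lower with the Mapt crRNAs, a median of -0.15, and 0 were higher and 1 lower against Map2 crRNA 3 and Rbfox3 crRNA 5. Cox5b, of complex IV, went the other way, at 160.2 to 178.6 with Mapt crRNAs and 109.6 and 115.6 with NT crRNA (0.57, limma adjusted p = 8.35e-06, and -0.02 shift-subtracted). Of 37 proteasome genes, 4 were higher and 13 lower, and Psmb4, of the core particle, was at 151.9 to 208.6 with Mapt crRNAs and 260.6 and 239.6 with NT crRNA (-0.48, adjusted p = 0.000205). Against Map2 crRNA 3 and Rbfox3 crRNA 5, 0 proteasome genes were higher and 1 lower, and Psmb4 gave -0.20 (adjusted p = 0.178). Of 30 targets of the integrated stress response, 1 was higher and 15 lower, while 0 were higher and 0 lower against those 4 libraries and 0 higher and 2 lower shift-subtracted. Atf3, a stress-induced transcription factor of that response, was at 39.6 and 35.6 with crRNA 4, 35.0 and 37.3 with crRNA 6, and 56.0 and 49.6 with NT crRNA (-0.51, adjusted p = 1.23e-05), and Ddit3, or CHOP, fell by 0.26. Over Map2 crRNA 3 and Rbfox3 crRNA 5 the fold changes were -0.16 for Atf3 (adjusted p = 0.181) and 0.03 for Ddit3 (adjusted p = 0.717), and shift-subtracted they were -0.37 (adjusted p = 0.0154) and -0.24 (adjusted p = 0.0118), all in limma.

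Of 27 genes of cholesterol synthesis and uptake 0 were higher and 9 lower. Of 46 genes of mRNA decay and translation control 13 were higher and 0 lower, among them Cnot3 of the deadenylase complex, at 41.8 and 51.0 with crRNA 4, 56.2 and 49.4 with crRNA 6, and 35.2 and 33.3 with NT crRNA (0.52, adjusted p = 4.09e-05), and Pabpc1, the cytoplasmic poly(A)-binding protein (0.35, adjusted p = 0.000381). Of 18 heat shock chaperones 8 were higher and 1 lower, with Hspa8 at 206.3 to 252.0 with Mapt crRNAs and 177.9 and 175.4 with NT crRNA. Of 38 G2/M genes 10 were higher and 2 lower, such as the checkpoint gene Mad2l1 (0.30, adjusted p = 5.81e-05), and of 42 genes of G1/S and replication 10 were higher and 1 lower. None of the genes named in this paragraph overlapped between the groups, and none passed against Map2 crRNA 3 and Rbfox3 crRNA 5. In that comparison 0.12% of all genes tested were higher and 0.278% lower. There 0 genes were higher and 0 lower in each of the cholesterol, mRNA decay, heat shock and G2/M lists. Of the genes of G1/S and replication, 1 was higher and 0 lower.

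Cytosolic ribosomal protein genes went both ways, with 14 of 81 higher and 18 lower, a median of -0.02. Rps10 was at 77.7 to 87.1 with Mapt crRNAs and 43.8 and 39.6 with NT crRNA (0.93, limma adjusted p = 4.33e-07), but the shift-subtracted value was -0.31 (adjusted p = 0.153), and 51.8% of its windows occur in another gene. Of 23 neuronal genes of N2a cells 10 were higher and 4 lower, and 0 were higher and 0 lower against Map2 crRNA 3 and Rbfox3 crRNA 5. The neurofilament gene Nefh was at 79.0 and 86.5 with crRNA 4, 99.0 and 83.6 with crRNA 6, and 63.3 and 60.9 with NT crRNA (0.48, adjusted p = 5.21e-06). Nefh did not overlap NT, and its shift-subtracted value was 0.31 (adjusted p = 0.0245).

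**Figure D5:**
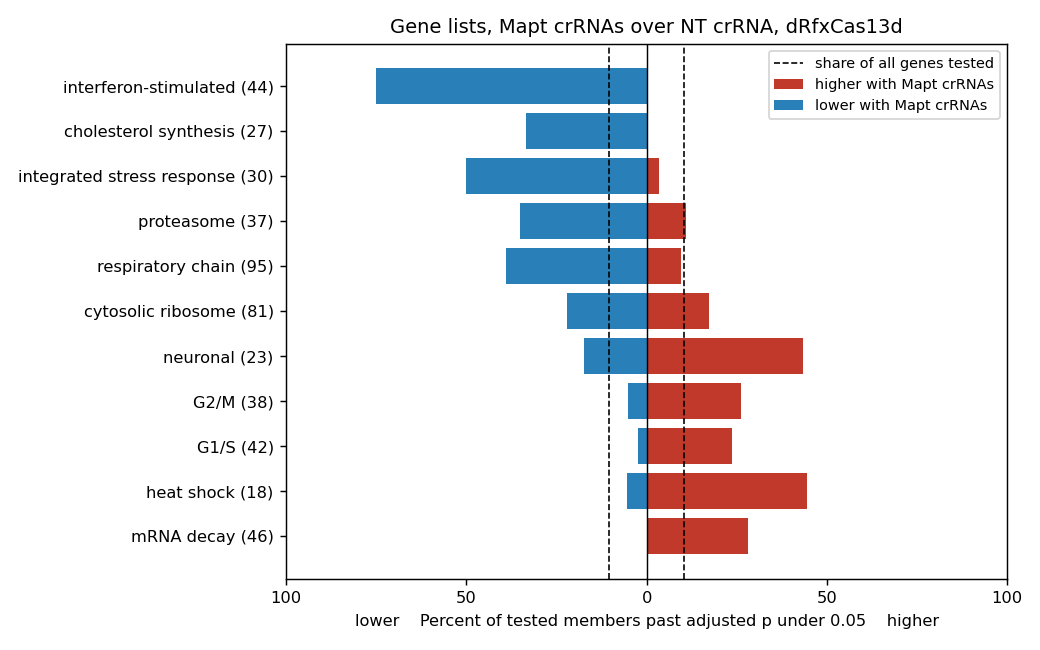
Percent of the tested members of 11 gene lists (number tested in brackets) that were higher (right, red) or lower (left, blue) with the Mapt crRNAs than with NT crRNA at an adjusted p under 0.05, dRfxCas13d. Dashed lines mark the share of all genes tested, 10.3% higher and 10.5% lower, and the interferon-stimulated list reaches farthest, with 33 of 44 lower.

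The differences from NT crRNA moved with base composition. From the fifth of genes with the least GC in their exons to the fifth with the most, the median log2 fold change was 0.046, 0.022, -0.005, -0.052 and -0.058, the share of genes higher with Mapt crRNAs was 15.7% in the first and 6.38% in the last, and the share lower was 4.15% and 16.6%. Across genes, which are not independent replicates, Spearman's correlation of fold change with GC was -0.21 against NT crRNA, -0.09 against Map2 crRNA 3 and Rbfox3 crRNA 5, and 0.00 between crRNA 4 and crRNA 6. The correlation was -0.25 for Map2 crRNA 3 and Rbfox3 crRNA 5 over Sik3-S crRNA 1, Sik3-S crRNA 8 and Map2 crRNA 1. Those libraries hold neither a Mapt crRNA nor NT crRNA. Shift-subtracted, the Mapt crRNAs over NT crRNA gave -0.08. The slope was thus not particular to the Mapt crRNAs. The part of base composition in the gene lists above was not tested.

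The comparison of the Mapt crRNAs with NT crRNA differed between the dead and the active nuclease for many genes. With RfxCas13d, 2556 genes were higher and 2480 lower with the Mapt crRNAs (19.2% and 18.7%). The difference between the nucleases, RfxCas13d minus dRfxCas13d, was positive for 2162 genes and negative for 2076 at an adjusted p under 0.05 (16.3% and 15.6%), of which 114 and 32 passed 2-fold (0.858% and 0.241%, 1.1% in all). The cytosolic ribosomal protein genes were 14 higher and 18 lower with dRfxCas13d, against 70 higher and 1 lower with RfxCas13d, and replication-dependent histones 3 higher and 1 lower of 57, against 35 higher and 0 lower. The interferon-stimulated genes were 0 higher and 33 lower with dRfxCas13d, against 4 higher and 9 lower with RfxCas13d, and 25 of the 44 passed the test of the difference with a positive sign and 0 with a negative one. Isg15 was at 25.5 to 33.8 with dRfxCas13d and Mapt crRNAs and 58.2 in both libraries with NT crRNA, and at 39.7 to 49.8 with RfxCas13d and Mapt crRNAs and 41.5 and 36.8 with NT crRNA. The NT levels themselves differed between the nucleases. With NT crRNA, Irf7 was at 2.08 and 2.35 with RfxCas13d and 12.2 and 8.43 with dRfxCas13d. Usp18 was at 5.10 and 4.56 against 23.3 and 20.8, and Oas1b at 6.98 and 7.14 against 18.2 and 19.4, in the same order. The part of these lower NT levels in the difference was not tested. Replicate 1 of RfxCas13d with NT crRNA held liver transcripts, with Alb at 260.1 against 0.145 in replicate 2, and without it 108 genes were positive and 34 negative at 2-fold. The 8 libraries that stand apart all hold dRfxCas13d, so a difference between the nucleases cannot be told apart from the library split. On the same side of it, over Map2 crRNA 3 and Rbfox3 crRNA 5, Ndufa12 changed by 0.15 and Snord2 by 0.38 (adjusted p = 0.775, limma) with the Mapt crRNAs and dRfxCas13d, against differences between the nucleases of -1.08 for Ndufa12 and 3.91 for Snord2. Both are among the genes that showed the split, so small values within the 8 libraries follow in part from that. Both were also picked for their change with dRfxCas13d over NT crRNA, which the difference between the nucleases subtracts.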

How the data were processed

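The deposited values were FPKM per gene for 36 libraries, made by the authors with Trim Galore, Subread on mm10 and featureCounts, at versions not given in the sources used here, and read counts were not used. FPKM were rescaled by median-of-ratios factors, and log2(FPKM + 1) was fitted by group with limma 3.58.1 in R 4.3.3 (trended variance, Benjamini-Hochberg adjustment) over 13293 genes with at least 1 FPKM in at least 2 libraries. Genes passed at an adjusted p under 0.05, and were called with at least a 2-fold change as well. Fold changes are on the log2(FPKM + 1) scale, which understates those of low genes. Depth was estimated from the steps of low FPKM, which came out whole for 95.7% to 98.4% of values in the 6 libraries. The comparison with NT was tested on simulated data, where changes of 1.3-fold passed the adjusted p in 86% of 100 genes and changes of 2.5-fold in 100%. Of the unchanged genes, 12 passed the adjusted p and 2 were called. The changed genes were drawn from those above about 5 FPKM and no library split was simulated, so these shares do not cover low genes. The genes named were Mapt and the other targets, up to 10 called and non-overlapping genes with the largest change in each direction against NT and the 4 largest of each further comparison, the 3 members of each list with the smallest p, near matches with at most 3 mismatches and the neighbors of Mapt, plus others said to have been chosen after their values were seen. Results for some genes are not reported here. The members and gene lists were chosen with earlier results of these data known. Equal replicate numbers of the crRNA 4, crRNA 6 and NT groups did not pair the libraries (correlations of deviations -0.27, 0.09 and 0.01). Alternatives changed the pseudocount, filter, scaling, libraries fitted and replicate block.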

Additional observations from a re-analysis of the deposited data

Results flagged for a closer look

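For 12 results the change with the Mapt crRNAs over NT crRNA differed between the nucleases by the interaction term of the limma fit, and each value is the change with RfxCas13d minus that with dRfxCas13d on the log2 scale. Mapt differed by -2.85 (adjusted p = 2.35e-17). The interferon-stimulated genes Isg15, at 1.07 (adjusted p = 1.17e-06), and Irf7, at 1.12 (adjusted p = 0.000184), were lower with Mapt crRNAs under dRfxCas13d. With NT crRNA, Isg15 was at 41.5 and 36.8 with RfxCas13d and 58.2 in both libraries with dRfxCas13d. Irf7 was at 2.08 and 2.35 with RfxCas13d and NT crRNA, and at 12.2 and 8.43 with dRfxCas13d and NT crRNA. Isg15 was named for its p in the dRfxCas13d comparison with NT crRNA, and Irf7 after its values were seen.

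Of the genes called with dRfxCas13d, Gm6654 differed by -1.65 (adjusted p = 6.71e-06), Ndufa12 by -1.08 (adjusted p = 1.06e-05) and Rhox2b by -1.38 (adjusted p = 0.000125). Gm20594 differed by -1.41 (adjusted p = 0.00356), Fam24a by -1.63 (adjusted p = 0.0194) and 1810009A15Rik by -1.18 (adjusted p = 0.0161). The short entries Snora75, Mir7-1 and Snord2 differed by -1.78 (adjusted p = 0.0253), -1.62 (adjusted p = 0.0102) and 3.91 (adjusted p = 0.000342). The genes of this paragraph were picked for their large change with dRfxCas13d over NT crRNA, which the difference subtracts. A difference of the opposite sign follows in part from that choice, and these p-values do not allow for it. All 8 libraries that stand apart hold dRfxCas13d and no RfxCas13d library is among them, so a difference between the nucleases cannot be told apart from that split. Relative to Map2 crRNA 3 and Rbfox3 crRNA 5, on the same side of it, dRfxCas13d with the Mapt crRNAs gave 0.15 for Ndufa12, -0.03 for Gm6654 and 0.38 for Snord2 (adjusted p = 0.775, limma), and the shift-subtracted value of Snord2 over NT crRNA was 0.50. Ndufa12, Gm6654 and Snord2 are among the genes that showed the split, so small values within the 8 libraries follow in part from that. Isg15, Irf7 and Rhox2b are not among those genes, and their values over the same libraries are given above.

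Replicate 1 of RfxCas13d with NT crRNA held liver transcripts. Without it, which leaves 1 library in that group, the difference of 1810009A15Rik no longer passed, at -0.82, and that of Mapt was -2.88. Entries listed at 0 in all libraries of a group, such as Mir5104 and Mir128-1, were left out of the results above. Their differences also no longer passed without that replicate, at -1.45 for Mir5104 and 1.71 for Mir128-1.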

How the results depend on the processing

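Counts of genes past an adjusted p and 2-fold changed with the treatment of low values. In the order Mapt crRNAs over NT, crRNA 4 over NT, crRNA 6 over NT, Mapt crRNAs over other targeting, other targeting over NT and the difference between nucleases, they were 36, 18, 54, 7, 6 and 146 as reported, 64, 42, 86, 12, 13 and 220 with a pseudocount of 0.5, and 98, 59, 123, 32, 19 and 284 with 0.1. Restricted to genes averaging 5 FPKM or more, the first 4 were 10, 11, 20 and 3 and the last 74. With entries of at least 300 bases the first 5 were 19, 9, 33, 0 and 0, and crRNA 4 against crRNA 6 had 0. That comparison had 1 call with no filter on low values.

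Fitting only the libraries of each comparison gave 13 calls and 18 genes past the adjusted p against NT (interferon-stimulated genes 4, Mapt -0.17, not past), 0 genes by either rule and 0 interferon-stimulated genes for crRNA 4, for crRNA 6 (Mapt -0.32, not past) and between them (Mapt 0.30, not past), 1133 against other targeting, 2 calls and 84 genes for other targeting over NT, and 0 near matches and 0 genes shared by the nucleases. With only the 18 dRfxCas13d libraries, 393 genes passed for crRNA 4 over NT, 30 between the crRNAs (1 call, 2 interferon-stimulated genes) and 121 for other targeting over NT. The cause was not tested; fewer libraries leave fewer degrees of freedom.

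The settings of this paragraph that involve the 8 libraries were chosen after seeing the data. Subtracting their shift left 6 calls and 166 genes against NT (interferon-stimulated genes 19, Mapt -0.11), 0 calls and 6 genes for crRNA 4 (interferon-stimulated genes 2, Mapt reversed at 0.04), 17 calls and 424 genes for crRNA 6 (Mapt -0.26, not past) and 1 near match. It also turned Snord2 to 0.50, Rps10 to -0.31, Cox5b to -0.02, Dusp11 to -0.05 and Tubb3 to 0. Against Map2 crRNA 3 and Rbfox3 crRNA 5 only, 0 calls, 53 genes and 8 interferon-stimulated genes passed. Without those 4 libraries there were 17 calls, Mapt passed at -0.13, and 133 genes passed for other targeting over NT. Mapt over other targeting also passed with FPKM as deposited (-0.11) and after quantile normalization (-0.12), and these scalings gave 56.3% and 47.8% lower among the genes past the test against NT, against 50.5% as reported.

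With each library left out in turn, genes past the adjusted p ranged from 1421 to 3143 against NT, 77 to 1641 for crRNA 4, 1117 to 3087 for crRNA 6, 26 to 251 between the crRNAs, 19 to 47 shared by the nucleases, 766 to 2624 against other targeting and 50 to 501 for other targeting over NT. Calls ranged from 28 to 46, 10 to 46, 46 to 65, 3 to 8, 3 to 14 and 7 to 9 in the same comparisons without the shared genes, and 121 to 171 between nucleases. Interferon-stimulated genes ranged from 29 to 35 against NT, 8 to 26 for crRNA 4, 30 to 37 for crRNA 6, 1 to 5 between the crRNAs and 25 to 33 against other targeting, and near matches from 2 to 6. Mapt ranged from -0.20 to -0.16 for both crRNAs, -0.07 to 0.01 for crRNA 4, -0.35 to -0.31 for crRNA 6, 0.26 to 0.34 between the crRNAs, -0.12 to -0.08 against other targeting and -2.88 to -2.83 between nucleases. Dusp11 with both crRNAs over NT, at 0.01, ranged from -0.04 without crRNA 6 replicate 1 to 0.06 without crRNA 6 replicate 2, and was -0.01 without crRNA 4 replicate 2.

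The replicate block gave 36 calls and 2707 genes past the adjusted p against NT, and 37 genes shared by the nucleases between the crRNAs. A crossed pairing, also added later, of crRNA 4 with crRNA 6, whose same-numbered libraries had a correlation of -0.27, gave 2 calls and 73 genes between the crRNAs. Of 1156 values of 70 named genes under 18 settings, 980 kept direction and side of the threshold, 169 no longer passed and 7 reversed, in 5 genes.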

Other observations

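Further gene groups were read in the comparison of the Mapt crRNAs with NT crRNA under dRfxCas13d, where 10.3% of all genes tested were higher and 10.5% lower, against 19.2% higher and 18.7% lower under RfxCas13d. Of 29 genes of hypoxia and glycolysis 3 were higher and 9 lower, and Aldoa, a glycolytic aldolase, was at 653.7 and 566.5 with crRNA 4, 528.8 and 579.8 with crRNA 6, and 719.1 in both libraries with NT crRNA. Of 34 immediate early genes, the first response to stimulation, 2 were higher and 8 lower with dRfxCas13d, against 27 higher and 3 lower with RfxCas13d. Of 16 long noncoding host genes of small nucleolar RNAs 0 were higher and 6 lower with dRfxCas13d, against 13 higher and 0 lower with RfxCas13d. Of 22 targets of p53 2 were higher and 3 lower, of 22 chaperones of the endoplasmic reticulum 6 were higher and 5 lower, and of 77 mitochondrial ribosomal proteins 7 were higher and 12 lower. With dRfxCas13d and against Map2 crRNA 3 and Rbfox3 crRNA 5, 1 gene of hypoxia and glycolysis was higher and 0 lower. In that comparison 0 immediate early genes and 0 chaperones of the endoplasmic reticulum were higher or lower.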
